A study of Schmidtea mediterranea with 24 samples.

Results

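The Notch receptor and its delta ligand were followed across intact planarians and regenerating tails. They are 2 of the 82669 transcripts in the count table and were taken by identifier, in a choice made with earlier results of these data known. SmedASXL_018182 is called *delta* here, since its closest named match is delta-like 4 (DLL4). SmedASXL_013814 is called *NOTCH1* after its closest match, and the supplement of the study marks it as expressed in muscle. Both names are best matches in other species, both transcripts stand in the 97-gene list of wound-induced genes that the supplement copies from earlier work, and both had enough reads to be tested in every comparison.

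The experiment held 24 libraries, 3 in each of 8 groups, and all animals were of the asexual clonal strain CIW4 of *Schmidtea mediterranea* and so descend from 1 line. The groups were *yki(RNAi)* or *control(RNAi)* animals, taken intact or as tail fragments at 6, 12 or 24 hours post amputation (hpa). *yki* encodes Yorkie, the transcriptional co-activator at the end of the Hippo pathway, and control animals were fed double-stranded RNA of *gfp*, a sequence foreign to the worm. Every animal, controls included, was fed double-stranded RNA 3 times and received 60 Gy of irradiation, which removes the dividing stem cells, 1 day before amputation or intact collection. The labels give 15 days after feeding for every group. Each tail library pooled 15 tail fragments, and each intact library pooled more than 8 whole animals.

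Notch is a receptor in the cell membrane that is activated by ligands of the Delta and Serrate family on a neighbouring cell. Ligand binding leads to cleavage of the receptor, and its intracellular part enters the nucleus and turns on target genes, among them repressors of the Hes family in flies and vertebrates. The pathway is known for sorting neighbouring cells into different fates, and because ligand and receptor in the same cell can also inhibit each other, the relative amount of both matters in other animals. Members of both kinds have been found among the genes switched on at planarian wounds.

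Library totals ranged from 11.02 M to 23.6 M counts (median 20.6 M), where *yki(RNAi)* intact replicate A (12.8 M) is counted from 1 of its 2 lanes. The *yki* transcript stood at 12.3 to 18.9 CPM (counts per 1 M library counts, scaled by TMM) over the 12 *yki(RNAi)* libraries, against 86.5 to 120.8 CPM over the 12 *control(RNAi)* libraries. The division genes *PCNA* and *mcm2*, markers of cycling stem cells, lay at 0.109 to 1.75 and 0.0457 to 2.17 CPM over all libraries, and the stem cell markers *piwi-1* and *bruli* at 1.88 to 14.2 and 5.36 to 16.5 CPM. The stem cell markers *piwi-2* and *piwi-3* lay at 215.3 to 352.6 and 150.4 to 227.7 CPM. Some libraries stood apart from their group. Of the intact level of 99 transcripts that tails nearly lack, *control(RNAi)* tail replicate C at 6 hpa held 18.6%, while the other tail libraries held 0.995% to 11.03%. At 6 hpa *yki(RNAi)* tails held 1.91%, 9.49% and 5.40%, against 6.06%, 11.03% and 18.6% in *control(RNAi)* tails. At 12 hpa these shares were 1.46%, 1.48% and 4.24% against 6.16%, 3.88% and 7.19%. At 24 hpa they were 0.995%, 10.86% and 2.46% against 4.07%, 6.26% and 8.00%. The part of this in the RNAi comparisons of tails was not tested. On a scale where the mean *control(RNAi)* tail is 0 at 6 hpa and 1 at 24 hpa, *yki(RNAi)* tails at 12 hpa lay at 0.602 to 0.766 and *control(RNAi)* tails at 12 hpa at 0.341 to 0.429. *control(RNAi)* intact replicates A and B lay at 0.492 and 0.475 on it, apart from replicate C at 0.0679. In replicates A, B and C of that group *delta* had 23.9, 21.0 and 22.2 CPM, and *NOTCH1* had 11.4, 11.3 and 11.2 CPM. The part of this difference between replicates in the comparisons was not tested.

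*delta* averaged lowest in intact animals of each RNAi and higher in their tails. In intact animals it had 30.3, 28.6 and 27.8 CPM after *yki(RNAi)*, against 23.9, 21.0 and 22.2 CPM after *control(RNAi)*. In tails at 6 hpa it had 38.9, 40.2 and 34.9 CPM after *yki(RNAi)*, against 36.1, 37.1 and 38.1 CPM after *control(RNAi)*. The intact libraries thus separated by RNAi, with *yki(RNAi)* above, while the 6 hpa libraries overlapped. At 12 hpa the *yki(RNAi)* values were 32.6, 29.6 and 28.7 CPM, against 39.0, 42.3 and 36.5 CPM in *control(RNAi)* tails. At 24 hpa they were 34.0, 30.1 and 32.1 CPM after *yki(RNAi)*, against 35.0, 34.3 and 42.6 CPM in *control(RNAi)* tails. At these later times every *yki(RNAi)* tail library lay below every *control(RNAi)* tail library, by a narrow margin at 24 hpa.

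*NOTCH1* was likewise lowest in intact animals, and its *yki(RNAi)* libraries lay above its *control(RNAi)* libraries in all 4 states. Intact animals had 18.0, 17.7 and 18.3 CPM after *yki(RNAi)*, against 11.4, 11.3 and 11.2 CPM after *control(RNAi)*. Tails at 6 hpa had 26.8, 27.7 and 24.7 CPM after *yki(RNAi)*, against 21.4, 19.7 and 23.5 CPM after *control(RNAi)*. The gap between the groups was wide in intact animals and closer to the spread of the libraries in tails. Tails at 12 hpa had 25.4, 25.1 and 23.9 CPM after *yki(RNAi)*, against 22.6, 23.2 and 21.7 CPM after *control(RNAi)*. Tails at 24 hpa had 25.9, 27.3 and 25.4 CPM after *yki(RNAi)*, against 20.2, 23.0 and 20.0 CPM after *control(RNAi)*. The plot of levels by library shows that the order of the RNAi groups stays the same for *NOTCH1* and crosses for *delta*. The share of all transcripts whose libraries separate by RNAi in this way was not computed.

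**Figure D1:**
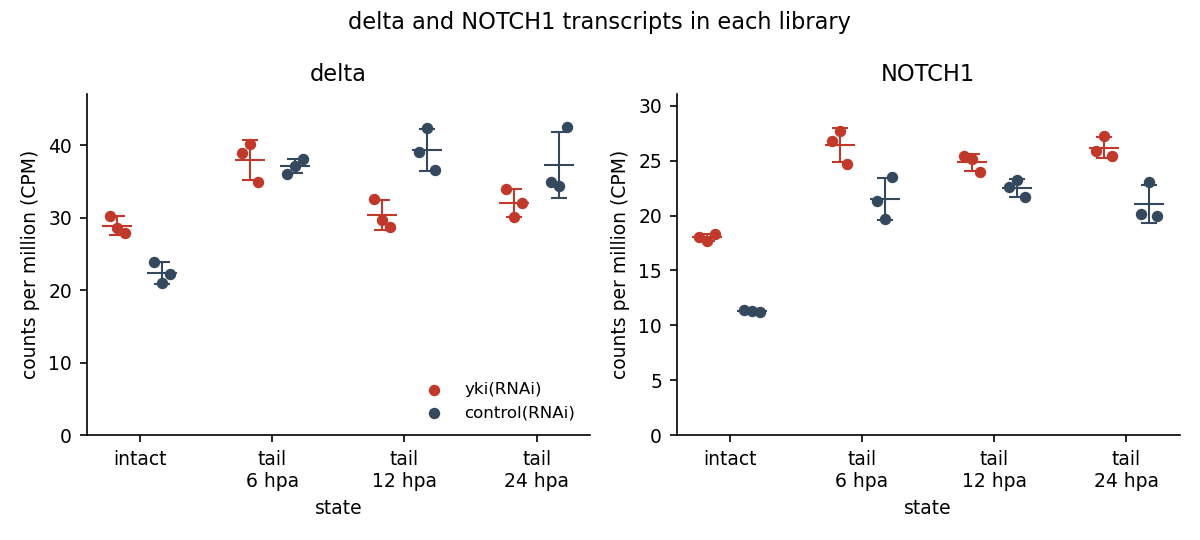
Scaled counts (CPM, vertical axis from 0) of *delta* (left) and *NOTCH1* (right) in each of the 24 libraries by state, *yki(RNAi)* in red and *control(RNAi)* in dark blue; points are libraries, horizontal marks are means and bars are 1 SD (n = 3). *NOTCH1* libraries of *yki(RNAi)* lie above those of *control(RNAi)* in every state, while *delta* libraries of *yki(RNAi)* lie above in intact animals and below at 12 and 24 hpa.

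Ranked by mean and cut where neighbouring groups did not overlap, the *delta* levels formed 3 tiers, which describe these libraries and were not tested. *control(RNAi)* tails at 12 hpa (39.3 ± 2.9 CPM, SD, n = 3 here and below), *yki(RNAi)* tails at 6 hpa (38.0 ± 2.8), *control(RNAi)* tails at 24 hpa (37.3 ± 4.6) and *control(RNAi)* tails at 6 hpa (37.1 ± 1.0) overlapped with their neighbours in this order. *yki(RNAi)* tails at 24 hpa (32.1 ± 2.0 CPM), *yki(RNAi)* tails at 12 hpa (30.3 ± 2.0) and *yki(RNAi)* intact animals (28.9 ± 1.3) overlapped in the same way, and *control(RNAi)* intact animals came last (22.4 ± 1.5). *NOTCH1* fell into 4 tiers, with *yki(RNAi)* tails at 6, 24 and 12 hpa (26.4 ± 1.6, 26.2 ± 0.98 and 24.8 ± 0.80 CPM) above *control(RNAi)* tails at 12, 6 and 24 hpa (22.5 ± 0.79, 21.5 ± 1.9 and 21.1 ± 1.7 CPM). *yki(RNAi)* intact animals (18.0 ± 0.32 CPM) and *control(RNAi)* intact animals (11.3 ± 0.093 CPM) followed, each apart from its neighbours. These levels rest on 279 to 906 reads of *delta* and 133 to 615 reads of *NOTCH1* per library. Counting error alone gives a coefficient of variation of 3.51% to 5.26% for *delta* and 4.22% to 7.39% for *NOTCH1*, so the 0.820% among the *NOTCH1* values of *control(RNAi)* intact animals is tighter than counting allows on average. In pooled tissue, fewer cells that express a gene and less RNA per cell cannot be told apart.

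The effect of *yki(RNAi)* was tested within each state, so the groups compared share the labelled body region and time. Tail libraries of the same state still differed in RNA of transcripts that tails nearly lack, as given above. At 12 hpa the RNAi groups also differed on the scale of tail times. Calls needed an adjusted p under 0.05 together with a level at least 25% higher or 20% lower than in *control(RNAi)* animals. *NOTCH1*, the receptor, was called in intact animals, where it was 1.59-fold higher after *yki(RNAi)* (log2 fold change 0.67, SE 0.099, adjusted p = 0.00277, edgeR). In that comparison 3.65% of 25534 transcripts were called (1.68% higher), and 98.0% of them had a lower log2 fold change than *NOTCH1*. In tails it was 24.8% higher at 6 hpa (log2 0.32, SE 0.084, adjusted p = 0.0503), 11.6% higher at 12 hpa (log2 0.16, SE 0.059, adjusted p = 0.0539) and 24.7% higher at 24 hpa (log2 0.32, SE 0.079, adjusted p = 0.0599). None of the 3 was called, and each missed both limits. Every *yki(RNAi)* library exceeded every *control(RNAi)* library at each time, but how many of all transcripts separate in this way was not computed. Leaving out *control(RNAi)* tail replicate C at 6 hpa, the library with the most RNA of transcripts that tails nearly lack, raised the 6 hpa value to 0.38 (adjusted p = 0.04) and past both limits. This was the only 1 of 6 fits leaving out a library to call it, with adjusted p up to 0.229 in the others.

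*delta*, the ligand, did not keep 1 direction. In intact animals it was 1.29-fold higher after *yki(RNAi)* (log2 0.37, SE 0.094), with an adjusted p of 0.0516 that was not called by edgeR's test of these 6 libraries. Of 6 fits that left out a library, 1 called it, without *control(RNAi)* intact replicate C (log2 0.34, adjusted p = 0.0426). In the other fits of this kind the adjusted p ran up to 0.255. DESeq2 called it, as did all 24 libraries in 1 fit, the replicate block and both lanes of *yki(RNAi)* intact replicate A (log2 0.37 to 0.40, adjusted p = 0.0117 to 0.0439). It was not called without a filter or with DESeq2 size factors in edgeR (adjusted p = 0.0624 and 0.0526). At 6 hpa the fold was 1.04 (log2 0.06, SE 0.074, 95% interval -0.11 to 0.22, adjusted p = 0.753), where 5.54% of transcripts were called. At 12 hpa *delta* fell to 0.782-fold of the *control(RNAi)* level (log2 -0.36, SE 0.062, adjusted p = 0.000307) and was called. The 12 hpa comparison called many transcripts, 19.5% of 28391 (9.95% lower), and 16.5% had a lower log2 fold change than *delta*. That call rested on the fold minimum: without *control(RNAi)* tail replicate B or *yki(RNAi)* tail replicate C at 12 hpa the log2 value was -0.31 or -0.32 and the fold lay short of it, with adjusted p = 0.00282 and 0.00155. The *yki(RNAi)* tails at 12 hpa were also the ones that lay nearer to 24 hpa on the scale of tail times above, whose part in this value was not tested. At 24 hpa the value was 0.861-fold (log2 -0.22, SE 0.095, adjusted p = 0.271) and was not called, against 3.67% of transcripts called. Without *control(RNAi)* tail replicate C at 24 hpa, the highest *delta* library of all, the log2 value was -0.11.

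**Figure D2:**
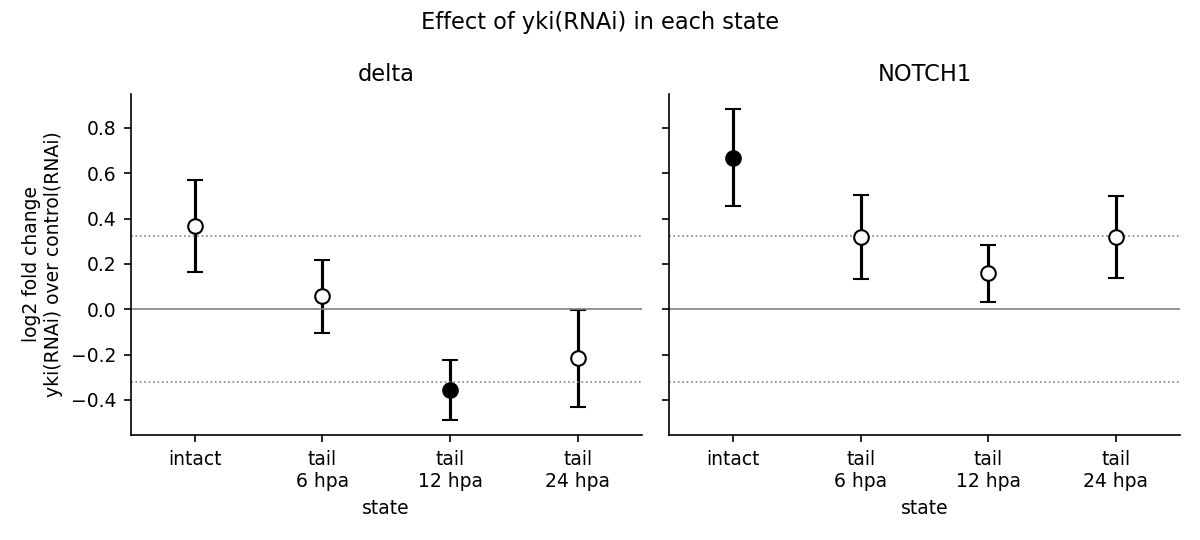
Log2 fold change of *yki(RNAi)* over *control(RNAi)* (vertical axis) for *delta* (left) and *NOTCH1* (right) in each state; bars are 95% intervals, filled points were called, and dotted lines mark the smallest fold that could be called, 25% higher or 20% lower. *NOTCH1* stays above 0 in all 4 states, from 0.16 to 0.67, and *delta* goes from 0.37 in intact animals to -0.36 at 12 hpa.

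Averaging the effect over the 3 tail times, a comparison added after the values were seen, gave 1.19-fold for *NOTCH1* (log2 0.26, SE 0.044, adjusted p = 0.000156) and 0.882-fold for *delta* (log2 -0.18, SE 0.048, adjusted p = 0.00801). Neither was called, since both lay short of the fold minimum, while 13.4% of 32438 transcripts were called. Leaving out each of the 18 tail libraries in turn kept both signs, with adjusted p up to 0.000771 for *NOTCH1* and 0.0189 for *delta*.

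Tails were then compared with intact animals of the same RNAi, the comparison in which wound-induced genes are found. Intact animals hold all body regions, so region, time after irradiation and injury cannot be told apart in it. In *yki(RNAi)* animals *NOTCH1* was 1.45-fold, 1.39-fold and 1.45-fold higher in tails at 6, 12 and 24 hpa than in intact animals (log2 0.53, 0.48 and 0.54, SE 0.071 to 0.079), with adjusted p = 0.000694, 0.000116 and 0.000279. In *control(RNAi)* animals it was 1.86-fold, 1.96-fold and 1.86-fold higher (log2 0.90, 0.97 and 0.89, SE 0.087 to 0.109), with adjusted p = 0.000223, 8.33e-06 and 0.000259. The receptor was also higher in every tail library than in every intact library of the same RNAi, yet none of the 6 comparisons reached the 2-fold minimum. How many of all transcripts separate tails from intact animals in this way was not computed. The shares called at 2-fold, in either direction, were 2.80%, 6.18% and 9.64% of transcripts in *yki(RNAi)* animals at 6, 12 and 24 hpa, and 3.18%, 4.09% and 4.29% in *control(RNAi)* animals.

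In *yki(RNAi)* animals *delta* in tails at 6 hpa was 1.30-fold above intact animals (log2 0.38, SE 0.080, adjusted p = 0.00995), whereas at 12 and 24 hpa the log2 values were 0.09 and 0.15 (95% intervals -0.07 to 0.24 and -0.02 to 0.31, adjusted p = 0.409 and 0.167) and the tail and intact libraries overlapped. In *control(RNAi)* animals the tails were 1.62-fold, 1.73-fold and 1.67-fold above intact animals (log2 0.70, 0.79 and 0.74, SE 0.086 to 0.108), with adjusted p = 0.000527, 4.59e-05 and 0.00108. Again no value reached 2-fold. The *yki(RNAi)* value at 6 hpa lost its adjusted p in 3 of 6 fits that left out a library, with adjusted p up to 0.071.

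**Figure D3:**
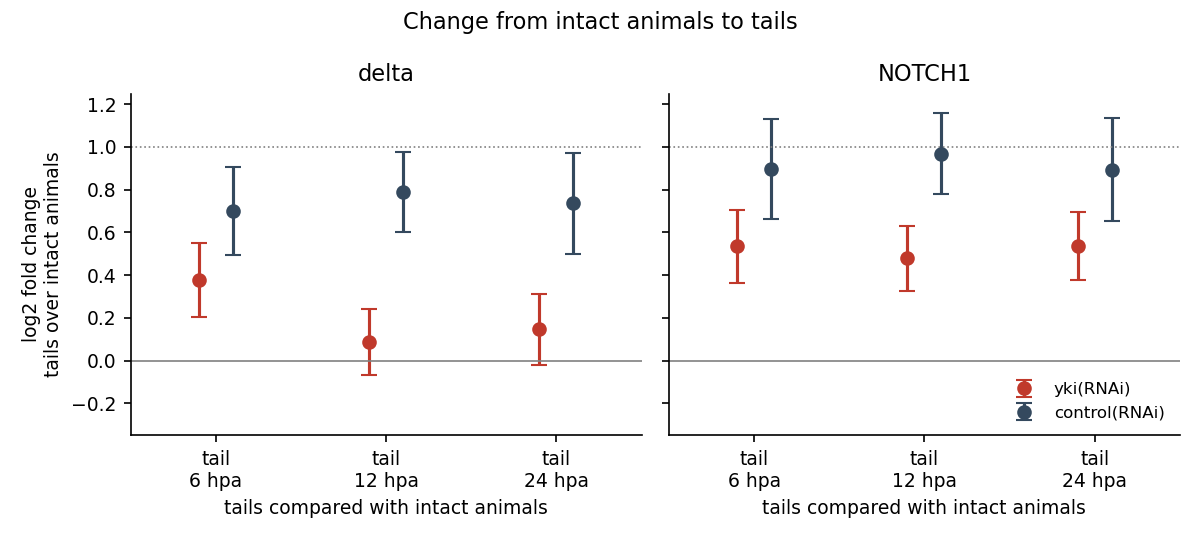
Log2 fold change of tails over intact animals of the same RNAi (vertical axis) at 6, 12 and 24 hpa for *delta* (left) and *NOTCH1* (right), *yki(RNAi)* in red and *control(RNAi)* in dark blue; bars are 95% intervals and the dotted line marks 2-fold. All *yki(RNAi)* values lie below the *control(RNAi)* values at the same time, and for *delta* at 12 hpa they are 0.09 and 0.79.

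The difference between the RNAi groups in that change was tested as an interaction, on 12 libraries at each time. At 12 hpa both transcripts were called: the change was smaller in *yki(RNAi)* than in *control(RNAi)* animals by 0.71 on the log2 scale for *delta* (difference -0.71, SE 0.111, adjusted p = 0.0017) and by 0.50 for *NOTCH1* (difference -0.50, SE 0.103, adjusted p = 0.0112). At that time 5.29% of 31448 transcripts were called, and both calls held in all 12 fits that left out a library, with adjusted p up to 0.00862 for *delta* and 0.0344 for *NOTCH1*. At 6 hpa the differences were -0.32 (SE 0.117, adjusted p = 0.434) for *delta* and -0.36 (SE 0.125, adjusted p = 0.426) for *NOTCH1*. There edgeR called 0 of 30471 transcripts (0%), with 3045 at an unadjusted p under 0.05, and DESeq2 called 34. At 24 hpa the differences were -0.59 (SE 0.134, adjusted p = 0.305) for *delta* and -0.36 (SE 0.117, adjusted p = 0.402) for *NOTCH1*, with 2 of 30863 transcripts called (0.00648%). These 3 tests share the same 6 intact libraries. Those libraries already differed by RNAi for *NOTCH1*, so its smaller relative change starts from a higher intact level and ends at a higher tail level. For *delta* the intact level was also higher after *yki(RNAi)* (log2 0.37, not called), and the 12 hpa tail level was lower (log2 -0.36). Both of these enter its difference at 12 hpa.

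Between tail times *NOTCH1* showed no called step. Its log2 changes were -0.06 and 0.07 in *yki(RNAi)* tails and 0.08 and -0.09 in *control(RNAi)* tails, for 12 against 6 and 24 against 12 hpa, with adjusted p of 0.463 to 0.607. *delta* fell in *yki(RNAi)* tails at 12 hpa relative to 6 hpa (log2 -0.30, SE 0.074, adjusted p = 0.0238), a comparison with 11.7% of 27675 transcripts called and no fold minimum. This call was lost in 4 of 6 fits that left out a library (without replicate A or B at 6 hpa, or B or C at 12 hpa), with log2 values of -0.26 to -0.29 and adjusted p of 0.0683 to 0.112. The other *delta* steps were 0.07 for 24 against 12 hpa in *yki(RNAi)* tails (adjusted p = 0.624) and 0.09 and -0.07 in *control(RNAi)* tails (adjusted p = 0.397 and 0.664), in comparisons that called 6.70%, 10.4% and 17.1% of transcripts. The last of these was -0.18 (adjusted p = 0.0579) without *control(RNAi)* tail replicate C at 24 hpa. The *delta* step to 12 hpa was 0.39 lower in *yki(RNAi)* than in *control(RNAi)* tails (difference -0.39, SE 0.103), which was not called as an interaction (adjusted p = 0.184, with 0.00984% of transcripts called), and that of *NOTCH1* was -0.14 (adjusted p = 0.733). For the step from 12 to 24 hpa the differences were 0.15 (SE 0.121, adjusted p = 0.631) for *delta* and 0.17 (SE 0.095, adjusted p = 0.449) for *NOTCH1*, with 0.0513% of transcripts called.

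The number of *delta* reads per *NOTCH1* read was computed in each library, since library size and scaling cancel in it. It is not a ratio of molecules, because transcript lengths were not used. Intact animals had 1.68, 1.62 and 1.52 after *yki(RNAi)*, against 2.09, 1.86 and 1.98 after *control(RNAi)*. Tails at 6 hpa had 1.45, 1.45 and 1.41 after *yki(RNAi)*, against 1.69, 1.88 and 1.62 after *control(RNAi)*. Both states thus showed fewer *delta* reads per *NOTCH1* read after *yki(RNAi)*, with no overlap. Tails at 12 hpa had 1.28, 1.18 and 1.20 after *yki(RNAi)*, against 1.73, 1.82 and 1.69 after *control(RNAi)*. Tails at 24 hpa had 1.31, 1.10 and 1.26 after *yki(RNAi)*, against 1.74, 1.49 and 2.13 after *control(RNAi)*. In all 4 states every *yki(RNAi)* library lay below every *control(RNAi)* library. How many other pairs of transcripts separate by RNAi in this way was not computed, for this ratio or for the test below.

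Over the 4 states the ratio after *yki(RNAi)* was 0.756 of that after *control(RNAi)* (mean log2 difference -0.40, SE 0.049). The two-sided exact permutation test, with labels exchanged within each state, gave p = 1.25e-05, the smallest that its 160000 arrangements allow. Within single states, where 3 against 3 cannot go below p = 0.10, the exact p was 0.10 in each, with log2 differences of -0.30 in intact animals and -0.27, -0.52 and -0.53 at 6, 12 and 24 hpa. Of 11 ratio tests in all, the one over 4 states had a Benjamini-Hochberg adjusted p of 0.000138 and the others lay between 0.122 and 0.50. Both RNAi groups had a lower mean ratio in tails than in intact animals, by log2 differences of -0.16, -0.39 and -0.39 at 6, 12 and 24 hpa in *yki(RNAi)* animals, and of -0.19, -0.18 and -0.16 in *control(RNAi)* animals. In *control(RNAi)* animals those ratios overlapped between tails and intact animals at 6 and 24 hpa (exact p = 0.20 and 0.50).

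**Figure D4:**
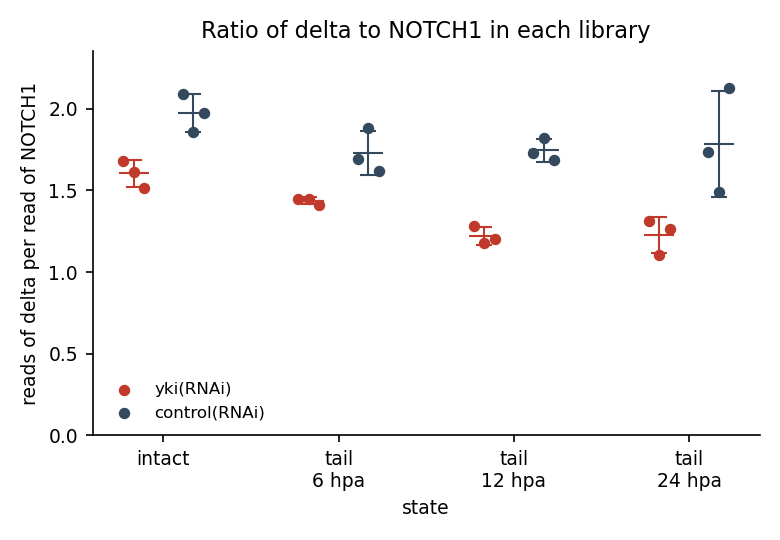
Reads of *delta* per read of *NOTCH1* (vertical axis from 0) in each of the 24 libraries by state, *yki(RNAi)* in red and *control(RNAi)* in dark blue; points are libraries, horizontal marks are means and bars are 1 SD (n = 3). The *yki(RNAi)* libraries lie below the *control(RNAi)* libraries in each state, at 1.10 to 1.31 against 1.49 to 2.13 at 24 hpa.

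A search of transcript names for Notch ligands, modifiers, cofactors and targets matched 6 names, *delta* and *NOTCH1* included. Only 249 transcripts of the table carry a name, so most pathway members that the worm may have, such as cleavage enzymes and nuclear cofactors, were not analysed here. The Hes-like genes *hesl-1* and *hesl-3*, named for a family of repressors that includes Notch targets in other animals, had 3 and 29 reads over all 24 libraries (0 to 0.0554 and 0 to 0.174 CPM) and were too low to test. The remaining names, *Dll-1* and *DLL-2*, use an abbreviation shared by Delta-like ligands and the Distal-less homeobox genes, and the files do not say which is meant.

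*Dll-1* had 5.83, 5.24 and 4.67 CPM after *yki(RNAi)* in tails at 12 hpa, against 4.28, 3.77 and 3.86 CPM after *control(RNAi)*, and was higher by a log2 fold change of 0.42 (SE 0.127, adjusted p = 0.0206, edgeR). *DLL-2* had 16.4, 15.2 and 14.2 CPM in those *yki(RNAi)* tails, against 13.5, 10.8 and 11.01 CPM in *control(RNAi)* tails, and was higher by 0.39 (SE 0.090, adjusted p = 0.00332). Both therefore stood higher after *yki(RNAi)* at the time at which *delta* was lower. For *DLL-2* the *yki(RNAi)* tails averaged 15.26 CPM at both 6 and 12 hpa. Its *control(RNAi)* tails went from 16.2 CPM at 6 hpa to 11.75 CPM at 12 hpa (log2 -0.45, adjusted p = 0.0199, edgeR). They returned to 15.44 CPM at 24 hpa (log2 0.40, adjusted p = 0.033), and these steps had 10.4% and 17.1% of transcripts called. Of the 4 names tested, 2 were called higher and 1 lower at 12 hpa, beside 9.57% and 9.95% of all transcripts. In intact animals only *NOTCH1* was called, and at 6 and 24 hpa 0 of the 4 were called by edgeR, where 3 (*NOTCH1* at 6 hpa, *NOTCH1* and *delta* at 24 hpa) had unadjusted p of 0.00304, 0.00297 and 0.048. The median log2 fold changes of the 4 were 0.33, 0.11, 0.27 and -0.04 in intact animals and at 6, 12 and 24 hpa, beside -0.01, 0.02, 0.01 and 0.00 over all transcripts tested. Against intact animals none of the 4 passed the 2-fold minimum at any time.

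Within the 97 wound-induced genes, *NOTCH1* ranked 14th of 93 tested by its log2 fold change after *yki(RNAi)* in intact animals, and 22nd of 94, 28th of 94 and 19th of 92 in tails at 6, 12 and 24 hpa. *delta* ranked 27th, 34th, 62nd and 62nd. In the list, 17 genes were called higher and 9 lower after *yki(RNAi)* in intact animals, and 11 and 20, 15 and 33, and 4 and 9 in tails at 6, 12 and 24 hpa. Of all transcripts tested, 1.68% were called higher and 1.98% lower in intact animals, and 2.25% and 3.29%, 9.57% and 9.95%, and 1.35% and 2.33% in those tails. Among the 14 list members marked as muscle, 5 were called higher and 2 lower in intact animals (median log2 0.34), but 0 higher and 2, 6 and 3 lower in tails (medians -0.02, -0.19 and -0.04), in comparisons with those same shares over all transcripts. *NOTCH1* had the second value from the top of those 14 in intact animals and the highest at each tail time. For the change from intact animals to *control(RNAi)* tails it ranked 6th, 4th and 4th of the 14, and for the interaction at 12 hpa, where 9 of the 14 were called lower and 0 higher beside 2.80% of all transcripts called lower, it ranked 9th.

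Markers of cell types moved with some of these groups. The muscle markers matched by name were only the collagens *COL4A2* and *collagen-alpha-5*, and their summed level in intact animals was 84.9 to 103.9 CPM after *yki(RNAi)*, against 60.3 to 94.0 CPM after *control(RNAi)*. In tails the sums after *yki(RNAi)* and *control(RNAi)* were 104.8 to 133.7 against 131.7 to 153.2 CPM at 6 hpa, 87.5 to 99.8 against 115.3 to 118.9 CPM at 12 hpa, and 81.1 to 83.6 against 79.6 to 96.5 CPM at 24 hpa. *COL4A2* makes up nearly all of this sum and is itself in the wound-induced list. The study drew *collagen-alpha-5* from these same libraries, by criteria that included a raised level in tails lacking *yki*. Any rise of this collagen in the tail comparisons below is therefore not independent of that choice and was not a test of muscle. The collagens differed from each other at 12 hpa, where *collagen-alpha-5* rose by 0.80 on the log2 scale (SE 0.134, adjusted p = 0.000182) and *COL4A2* fell by 0.40 (SE 0.053, adjusted p = 1.81e-05) after *yki(RNAi)*. Summed markers of the epidermal lineage (*prog-1*, *prog-2* and *vim-1*) were lower after *yki(RNAi)* in tails, at 785.7 to 913.8 against 1130 to 1211 CPM at 6 hpa, 329.1 to 362.2 against 530.3 to 616.7 CPM at 12 hpa and 136.6 to 211.8 against 299.6 to 339.1 CPM at 24 hpa. They overlapped in intact animals (759.5 to 1006 against 654.9 to 974.7 CPM). The part of muscle or epidermal cells in the *delta* and *NOTCH1* results was not tested, and no names of neuronal, gut, pharynx or protonephridial markers were matched. The eye marker *ovo*, which tails should nearly lack, lay at 0 to 0.429 CPM.

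Likeness of pattern was measured as Pearson's r of log2(CPM + 0.5) over the 24 libraries, among 20371 transcripts with a mean of at least 1 CPM. These libraries are 8 groups of 3, so r mostly reflects the group means, and *delta* and *NOTCH1* had r = 0.73 with each other. The named transcripts most like *delta* were *prog-1e* (r = 0.88), named after an early epidermal marker, *Evi/Wls* (0.85), which carries Wnt proteins to the cell surface, *X1.A2.3* (0.84), *noggin-like protein 1* (0.83), related to BMP antagonists, and *ALAD* (0.81), an enzyme of haem synthesis. Among those most like *NOTCH1* were *Hox4b* (0.97), a Hox gene, *Fzd-d* (0.96), a Frizzled receptor for Wnt proteins, *Post-2C* (0.96), a Hox gene of the posterior class, and *Sp5* (0.95), a zinc-finger transcription factor. Closer than any other transcript was *Hox4b* to *NOTCH1*, whereas 210 transcripts were more like *delta* than *NOTCH1* was. Names came from the count table itself or from lists of wound-induced genes in the supplement. Part of those lists was drawn by the study from these same libraries.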

How the data were processed

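RNA was measured by poly(A)-selected sequencing in 24 libraries. Per the labels and the methods of the study, the authors called bases with bcl2fastq 1.8.3, trimmed the ends of single-end reads and aligned them to the SmedASXL transcriptome with Bowtie2 2.2.4. The deposited values are raw counts of each transcript in each of 2 sequencing lanes. The counting tool, its use of strand and its treatment of reads shared by near-identical transcripts are not given in the sources used here, so such reads could shift the counts of either transcript. The tables of DESeq2 fold changes and p-values that the authors made were not used.

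Lanes were summed per library. *yki(RNAi)* intact replicate A rests on its first lane alone, since 22 entries of the second were damaged. A row that names no transcript held 6.31% to 7.49% of counts and was left out. CPM values used TMM library sizes over all 24 libraries.

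Tests were edgeR 4.0.16 quasi-likelihood F tests (R 4.3.3) on the libraries of the groups compared, with TMM scaling, filterByExpr (min.count 10, min.total.count 15) and Benjamini-Hochberg adjusted p-values over all transcripts tested. Calls needed an adjusted p under 0.05, with at least 25% higher or 20% lower levels for *yki(RNAi)* against *control(RNAi)*, at least 2-fold for tails against intact animals, and no fold minimum for time steps and interactions. SE is the log2 fold change divided by the square root of F. Depth sets the precision given with the levels, and counting intervals cover counting error only. The ratio used counts plus 0.5. Alternatives were DESeq2 1.42.0, other scaling, no filter, a fit of all libraries, a replicate block, other lanes, another pseudocount and leaving out each library. The mean over tail times was added after the values were seen.

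Named transcripts were *delta*, *NOTCH1* and *yki*, the matches of a fixed list of Notch pathway names that were called in a comparison of RNAi or of tails with intact animals, and the 5 named transcripts most correlated with each of *delta* and *NOTCH1*. Some items that these rules match are not reported here, and *hesl-1* and *hesl-3* are named to account for every match. The members and lists were chosen with earlier results of these data known. The labels call the replicates biological and do not say which shared a culture or day.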

Additional observations from a re-analysis of the deposited data

Results flagged for a closer look

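The change from intact animals to tails at 12 hpa differed between the RNAi groups for both transcripts in a direct test of that difference. For *delta* the change on the log2 scale was 0.09 in *yki(RNAi)* animals and 0.79 in *control(RNAi)* animals, a difference of -0.71 (SE 0.111, adjusted p = 0.0017, edgeR). For *NOTCH1* it was 0.48 in *yki(RNAi)* animals and 0.97 in *control(RNAi)* animals, a difference of -0.50 (SE 0.103, adjusted p = 0.0112). The higher intact levels after *yki(RNAi)*, log2 0.37 for *delta* (not called) and 0.67 for *NOTCH1*, enter these differences. On the scale of tail time described with the libraries, *yki(RNAi)* tails at 12 hpa lay closer to 24 hpa than *control(RNAi)* tails did, and the part of this in both differences was not tested.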

How the results depend on the processing

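*NOTCH1* in *yki(RNAi)* against *control(RNAi)* intact animals, *delta* at 12 hpa and both interactions at 12 hpa kept their call in every alternative that left out no library, and DESeq2 size factors, the first lane alone and a ratio pseudocount of 5 changed no call among 38, 1 and 1 results. *delta* in intact animals became called at 0.37 with all 24 libraries in 1 fit (adjusted p = 0.0117), 0.37 with the replicate block (adjusted p = 0.0244), 0.40 with both lanes of *yki(RNAi)* intact replicate A (adjusted p = 0.0439) and 0.39 with DESeq2 (adjusted p = 0.0314). It stayed uncalled at 0.38 without a filter (adjusted p = 0.0624). *NOTCH1* in *control(RNAi)* tails at 12 hpa against intact animals passed 2-fold at 1.01 with DESeq2 and 1.02 without a filter, and the *delta* interaction at 24 hpa was called at -0.62 by DESeq2 (adjusted p = 0.00992). DESeq2 gave no adjusted p for both transcripts in the 6 hpa interaction or for *NOTCH1* in that at 24 hpa. Leaving out 1 library gave ranges of 0.31 to 0.40 for *delta* in intact animals, -0.0013 to 0.098 for *delta* at 6 hpa (below 0 without *yki(RNAi)* replicate B), 0.26 to 0.38 for *NOTCH1* at 6 hpa, -0.41 to -0.31 for *delta* at 12 hpa and -0.36 to -0.26 for the *delta* step from 6 to 12 hpa in *yki(RNAi)* tails. In the fits with a replicate block, no other call changed. Deviations of libraries with the same letter correlated at -0.164 to 0.319, every pair lay above 0.1 in 1 of 14 comparisons, and the labels do not say that letters mark shared animals or days, so the letters were taken as numbering only.

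Counts of calls moved more. For *yki(RNAi)* against *control(RNAi)* intact animals 933 transcripts were called, against 1767 with all libraries in 1 fit, 1740 without a filter and 1685 with the block, and at 24 hpa 1016 against 1572 with all libraries. For *control(RNAi)* tails against intact animals the counts were 882 at 6 hpa (1340 with all libraries, 1422 without a filter) and 1177 at 24 hpa (1942 without a filter). For *yki(RNAi)* tails they were 1737 at 12 hpa and 2672 at 24 hpa (2878 and 4400 without a filter), and *control(RNAi)* tails at 24 against 12 hpa had 4687 calls, against 2902 by DESeq2. Interaction counts ran from 0 at 6 hpa to 34 by DESeq2, 3 with all libraries, 345 without a filter and 1 with the block. They were 1664 at 12 hpa (2614 without a filter), 2 at 24 hpa (130, 25 and 146 by DESeq2, with all libraries and without a filter), 3 for 12 against 6 hpa (77, 0 and 545) and 16 for 24 against 12 hpa (345, 1, 658 and, with the block, 33). The cause of these differences was not tested. With 3 libraries a group and 133 to 906 reads of each transcript per library, the SE of the RNAi log2 fold changes was 0.059 to 0.099, which limits the differences that could be called.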
